A study of Homo sapiens with 2 samples.

Results

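Collagen chain genes are the genes whose symbol reads COL, a number, A and a digit, such as COL4A1, each of which encodes an alpha chain of a collagen. They were picked by a name rule that uses no counts, though it was set with earlier results of these data known. The rule found 44 of the 60649 rows of the count table, and all 44 matched protein-coding genes of RefSeq. Rows of collagen antisense transcripts and pseudogenes, 10 in number, are not among them.

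Both libraries came from MDA-231, an established breast cancer line of human origin labelled wild type, kept for 16 h in serum-free medium with P4G11, an antibody against beta-1 integrin. An antibody called E7-s is also listed for both, but its role is not stated. RNA was recovered by RNA immunoprecipitation (RIP), in which a protein is pulled down by its antibody and the RNA that comes with it is sequenced. The MT1-MMP RIP used an antibody against MT1-MMP, the membrane-bound matrix metalloproteinase encoded by MMP14, and the IgG RIP used rabbit IgG as a mock. The sample title writes MMP1 for the antibody and the cell line tag of the IgG sample reads MDA-232. The design text, which names MT1-MMP and MDA-231, was followed. Each group is 1 library, so the values below compare these 2 libraries and have no replicate check.

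Collagens are secreted or membrane proteins built of alpha chains that wind around each other in a helix of glycine-rich repeats. Fibrillar collagens form the fibres of connective tissue, type IV collagens form the mesh of basement membranes, and the other classes decorate fibrils, form other networks or stay anchored in the cell membrane. MT1-MMP cleaves fibrillar collagen at the cell surface, and beta-1 integrin, joined to certain alpha subunits, is a collagen receptor.

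The libraries differed in depth and in makeup. The rows summed to 31636000 counts in the MT1-MMP RIP and to 13003668 in the IgG RIP, and a block of 28 ribosomal DNA rows took 10.2% of the former and 92.6% of the latter. Outside that block 28401567 and 962952 counts remained. The 6 mesenchymal markers of this line were all measured, with summed levels, in counts scaled to the library total (CPM), of 2770 in the MT1-MMP RIP and 158 in the IgG RIP. EGFR and CD44 held 47868 and 25209 of their 87626 MT1-MMP counts. CPM divides by totals that include the ribosomal block. On the TMM scale explained below, 4 of the 6 had log2 ratios below 0. VIM and AXL were higher in the IgG RIP there, and EGFR in the MT1-MMP RIP. Luminal breast markers summed to 22.8 and 6.08 CPM, fibroblast markers to 6.13 and 0.308, leukocyte markers to 1.77 and 0.0769, and endothelial markers to 111 and 2.08, nearly all from PECAM1 (3414 and 24 counts). KRT18 held 72 of the 79 luminal IgG counts. The fibroblast matrix genes DCN and LUM had 1 MT1-MMP count each and 0 IgG counts. MMP14 itself, the gene of the RIP target, had 367 and 134 counts. On the TMM scale MMP14 was higher in the IgG RIP (log2 ratio -4.07, 95% interval -4.36 to -3.77). By CPM its log2 ratio was 0.17 and it was not called.

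The collagen family held 0.185% of the MT1-MMP counts outside the ribosomal block (95% exact interval 0.183 to 0.186) and 0.0674% of the IgG counts (0.0623 to 0.0728). Intervals here and below cover counting error only, and reads that carry no molecular identifiers may repeat a molecule. Most of these reads lay in few genes. COL13A1 alone took 49.3% of the family's MT1-MMP counts (48.9 to 49.7) and 41.3% of its IgG counts (37.5 to 45.2). Together with COL8A1 it held 69.0% and 49.6%. COL12A1 and COL6A1, by contrast, made up 1.09% and 0.0877% of the family in the MT1-MMP RIP but 8.17% and 7.09% in the IgG RIP. These shares are of counts and take no account of gene length, and in such bulk libraries fewer cells with a transcript and less RNA per cell cannot be told apart.

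**Figure D1:**
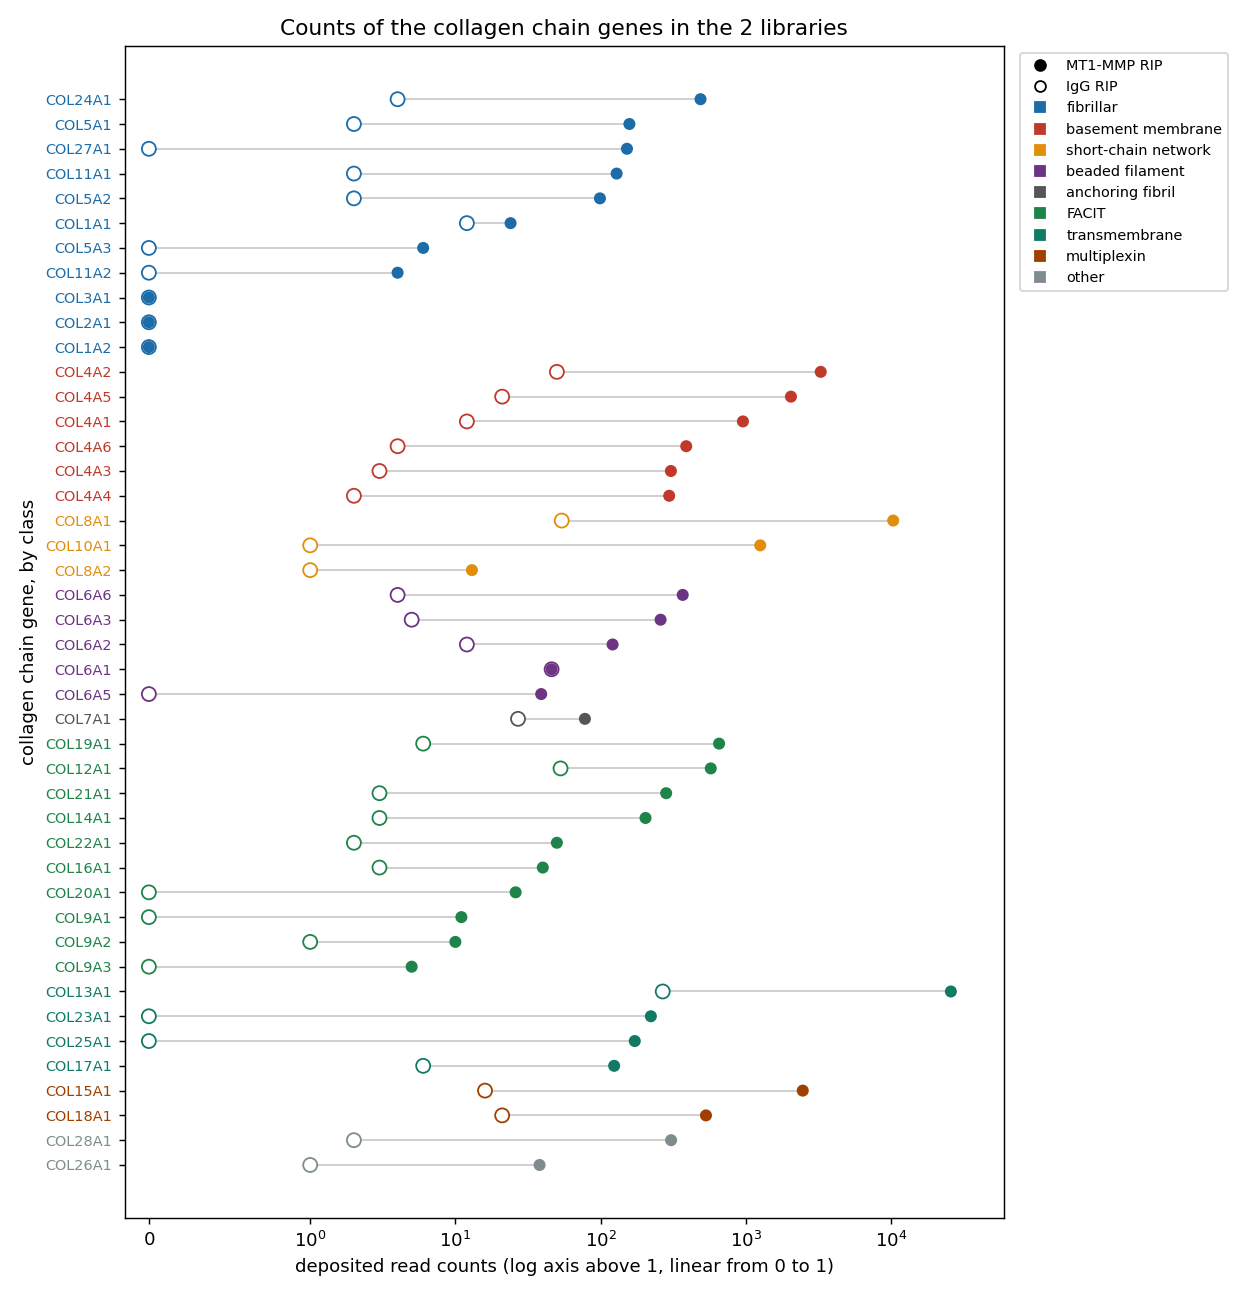
Deposited read counts of the 44 collagen chain genes, coloured by class, in the MT1-MMP RIP (filled points) and the IgG RIP (open points), on a log axis above 1 count. COL13A1 and COL8A1 lie highest in the MT1-MMP RIP with 25862 and 10359 counts, COL6A1 has 46 counts in both libraries, and COL1A2, COL2A1 and COL3A1 are listed at 0 in both.

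Of the 44 genes, 35 had at least 20 counts summed over both libraries and were tested. The remaining 9 had at most 14 summed counts, the closest being COL8A2 with 13 and 1. The smallest tested gene was COL20A1 with 26 and 0. The IgG counts were low: 12 of the 44 genes had none, 14 had 1 to 3, and the medians over tested collagen genes were 259 (MT1-MMP RIP) and 4 (IgG RIP), against 388 and 12 over tested protein-coding genes.

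The ratio between the libraries, MT1-MMP RIP over IgG RIP, was put on the TMM scale (trimmed mean of M-values), which sets the typical row near 1. On it, 45.9 counts in the MT1-MMP RIP for each count in the IgG RIP make a ratio of 1. A gene is called higher in a library here where its whole 95% interval lies beyond 2-fold of that typical row. Plain CPM, which divides by the library totals, puts every gene 4.24 higher on the log2 scale, and totals outside the ribosomal block put it 0.64 higher.

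On the TMM scale, 3 tested collagen genes were higher in the MT1-MMP RIP (COL8A1, COL10A1 and COL15A1), 5 were higher in the IgG RIP (COL1A1, COL6A1, COL6A2, COL7A1 and COL12A1), and 27 were neither. Among the 14318 tested protein-coding genes, 7.24% were higher in the MT1-MMP RIP and 16.2% in the IgG RIP. The collagen counts of 3 and 5 of 35 lie near those shares, which take no account of gene span (introns included). The 3 longest span deciles of protein-coding genes held 28 of the 35. From the shortest to the longest of these deciles, 8.03%, 16.6% and 39.0% of protein-coding genes were higher in the MT1-MMP RIP. In the same order, 2.30%, 1.89% and 1.40% were higher in the IgG RIP. The median log2 ratio of the 35 genes was 0.74, against 0.05 for tested protein-coding genes and 0.17 for all tested rows. With the 5 tested genes that had 0 IgG counts set to a floor of 3 counts, the collagen median was 0.35. A call as higher in the MT1-MMP RIP needed at least 341 MT1-MMP counts where the IgG count was 0. That was out of reach for 22 of the 35 genes, and 3 of the other 13 were called, against 13.7% of the 7542 protein-coding genes with as many counts. By plain CPM 31 collagen genes were higher in the MT1-MMP RIP and 0 in the IgG RIP, beside 86.1% and 0.691% of tested protein-coding genes. By totals outside the ribosomal block 6 were higher in the MT1-MMP RIP, with COL4A5, COL13A1 and COL23A1 added, and 4 in the IgG RIP, beside 17.8% and 11.2%. With a 4-fold threshold 1 (COL10A1) and 3 (COL1A1, COL6A1 and COL7A1) were called, beside 0.237% and 9.17%. COL10A1 lies inside another gene, as given below, and its reads cannot be told apart from those of that gene. With a minimum of 100 summed counts 2 and 3 of 28 were called, beside 3.75% and 17.6% of 11078 protein-coding genes.

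**Figure D2:**
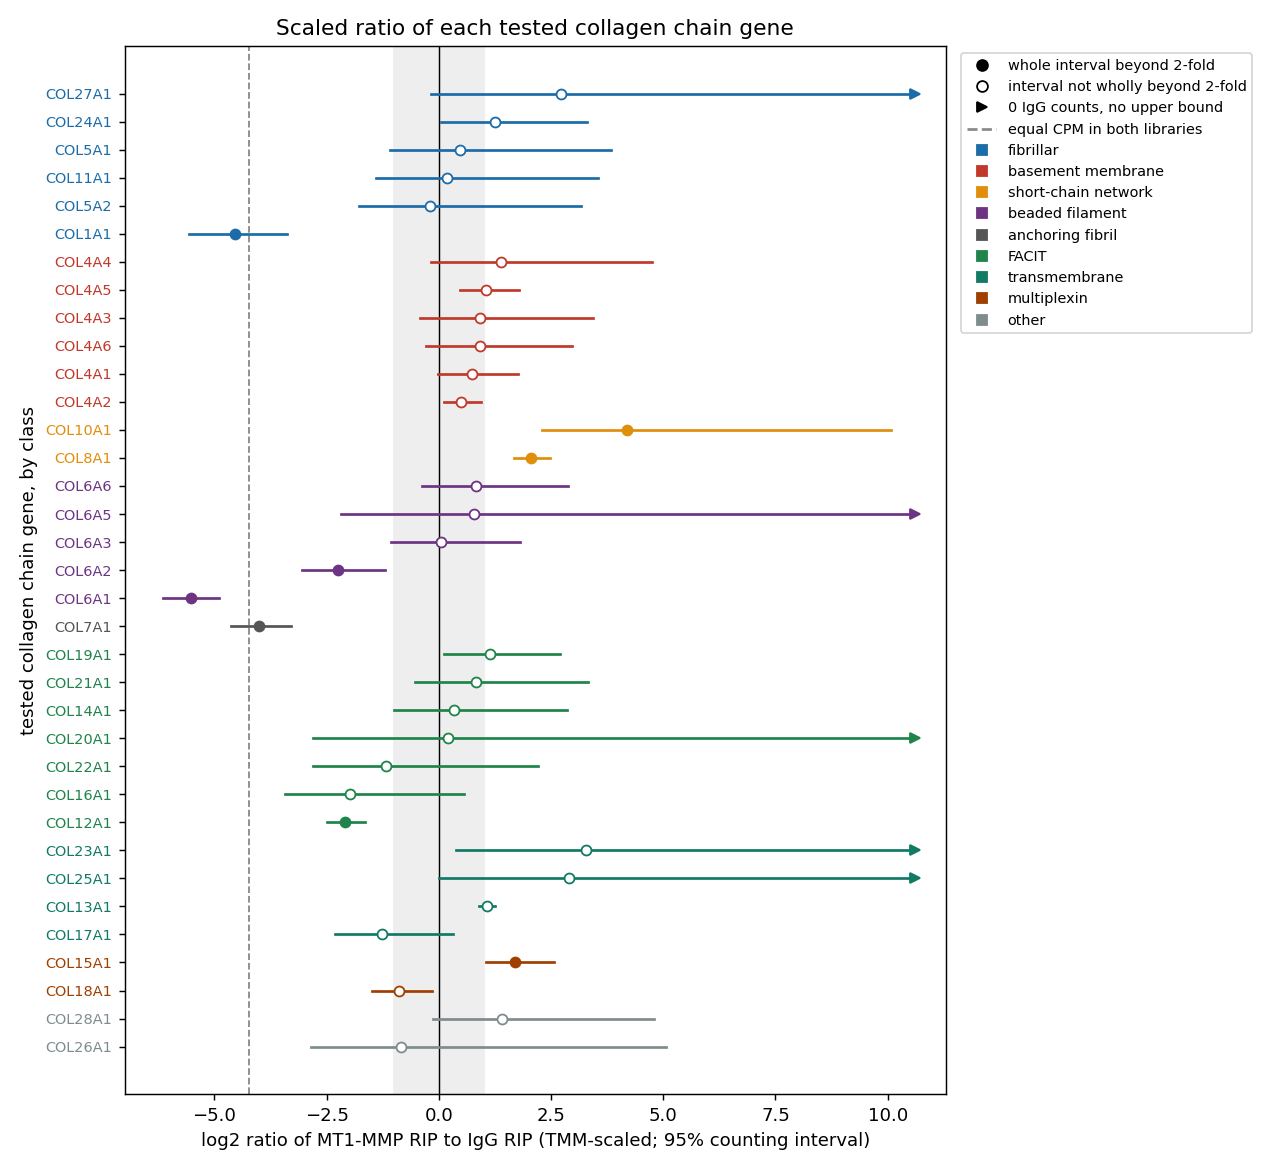
Log2 ratio (MT1-MMP RIP over IgG RIP) of the 35 tested collagen chain genes, TMM-scaled, with 95% counting intervals (arrows: 0 IgG counts, so no upper bound), coloured by class. The grey band is within 2-fold of the typical row and the dashed line marks equal CPM. The 3 filled points to the right of the band are COL8A1, COL10A1 and COL15A1, and the 5 to its left are COL1A1, COL6A1, COL6A2, COL7A1 and COL12A1.

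The fibrillar class was thinly covered. COL1A2, COL2A1 and COL3A1, chains of the main fibres of skin, bone, cartilage and vessel walls, were listed at 0 in both libraries. At 3 counts this allows up to 0.0948 CPM in the MT1-MMP RIP and 0.231 CPM in the IgG RIP. These limits divide by totals that include the ribosomal block, 92.6% of the IgG counts. On the TMM scale 45.9 MT1-MMP counts match 1 IgG count, so a 0 says less in the IgG RIP. COL1A1, the major chain of type I collagen, had 24 counts in the MT1-MMP RIP and 12 in the IgG RIP. It was higher in the IgG RIP, with a log2 ratio of -4.55 (95% interval -5.58 to -3.39), and by plain CPM the log2 ratio was -0.31. COL5A3 and COL11A2 had 6 and 4 MT1-MMP counts and 0 IgG counts.

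The other fibrillar genes had 99 to 488 MT1-MMP counts and 0 to 4 IgG counts. COL24A1, a minor fibrillar chain, had 488 and 4 counts (log2 ratio 1.24, 95% interval 0.04 to 3.29; later pairs of counts are given in the same way). COL5A1 and COL5A2, chains of the type V collagen found inside type I fibrils, had 158 and 2 counts (0.47, -1.09 to 3.84) and 99 and 2 counts (-0.21, -1.78 to 3.17). COL11A1, a chain of cartilage fibrils, had 129 and 2 (0.17, -1.39 to 3.55). COL27A1 had 152 and 0 counts, with no upper bound and a lower bound of 0.887-fold, so its interval includes the typical ratio. None of these 5 was called, and their intervals overlap each other.

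All 6 type IV genes, which encode the chains of the basement membrane mesh, were tested, and none was called in either direction. Their log2 ratios ran from 0.50 to 1.37. COL4A1 and COL4A2, the most widely used chains, had 956 and 3284 MT1-MMP counts and 12 and 50 IgG counts. On the log2 scale they lay at 0.74 (-0.02 to 1.75) and 0.50 (0.11 to 0.95). COL4A3 and COL4A4, which belong to the mesh of the kidney glomerulus, had 305 and 297 MT1-MMP counts and 3 and 2 IgG counts (0.93, -0.41 to 3.43, and 1.37, -0.17 to 4.75). COL4A5 and COL4A6, on the X chromosome, had 2048 and 389 MT1-MMP counts and 21 and 4 IgG counts (1.05, 0.47 to 1.78, and 0.91, -0.28 to 2.97).

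The type IV genes lie in head-to-head pairs, in which both genes of a pair are read outward from a shared stretch. COL4A2, COL4A3 and COL4A5 lie on the plus strand and their partners on the minus strand. Between the starts of their RefSeq spans lie 126 bases for COL4A1 and COL4A2, 135 for COL4A3 and COL4A4 and 379 for COL4A5 and COL4A6. The stretches are shown because they are what the genes of each pair share. They are RefSeq sequence of GRCh38.p14, plus strand, at chr13:110307158-110307283, chr2:227164489-227164623 and, for the 250 bases before COL4A5, chrX:108439588-108439837. Capitals mark matches on either strand to the CCAAT box, to the GC box spelled GGGCGG and to the TATA box spelled TATAAA, and none of these motifs contains another.
COL4A1 and COL4A2: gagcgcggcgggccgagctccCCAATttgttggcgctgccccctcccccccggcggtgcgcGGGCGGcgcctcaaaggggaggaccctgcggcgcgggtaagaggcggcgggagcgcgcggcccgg
COL4A4 and COL4A3: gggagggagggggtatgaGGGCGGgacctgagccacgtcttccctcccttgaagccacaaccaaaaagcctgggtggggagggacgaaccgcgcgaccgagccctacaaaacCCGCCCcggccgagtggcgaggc
COL4A6 and COL4A5: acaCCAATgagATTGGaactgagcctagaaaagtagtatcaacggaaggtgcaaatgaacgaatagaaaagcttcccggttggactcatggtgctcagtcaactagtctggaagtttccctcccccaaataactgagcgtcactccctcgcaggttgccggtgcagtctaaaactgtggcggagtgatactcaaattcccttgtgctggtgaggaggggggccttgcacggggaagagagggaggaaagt

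The stretch between COL4A1 and COL4A2 held 1 CCAAT and 1 GGGCGG match and was 80.2% G and C, that between COL4A4 and COL4A3 held 2 GGGCGG matches, and that before COL4A5 held 2 CCAAT matches. None held TATAAA. Promoter windows of 300 bases (250 before to 50 after a start) were at hand for 32 of the 44 collagen genes, and 10 held CCAAT, 18 GGGCGG and 5 TATAAA. Over all 27305 genes with such a window the shares were 35.7%, 44.6% and 12.0%.

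Levels differed within 2 of the pairs, while the ratios within each pair could not be told apart at this depth. COL4A2 had 15.9 MT1-MMP counts per kb of span (95% Poisson interval 15.4 to 16.5), 2.64 times the 6.04 of COL4A1 (5.67 to 6.44). COL4A5 had 7.95 per kb, 5.80 times the 1.37 of COL4A6. COL4A3 and COL4A4 had 2.03 and 1.51, but MFF-DT and RHBDD1 overlap them, as given below, and reads there cannot be assigned, so these levels are not compared. The MT1-MMP to IgG ratio of COL4A1 was 1.21 times that of COL4A2, with an exact interval of 0.634 to 2.51. For COL4A5 over COL4A6 it was 1.003 (0.249 to 2.99) and for COL4A3 over COL4A4 0.685 (0.0568 to 6.02), so differences of several-fold remain possible in these latter pairs.

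**Figure D3:**
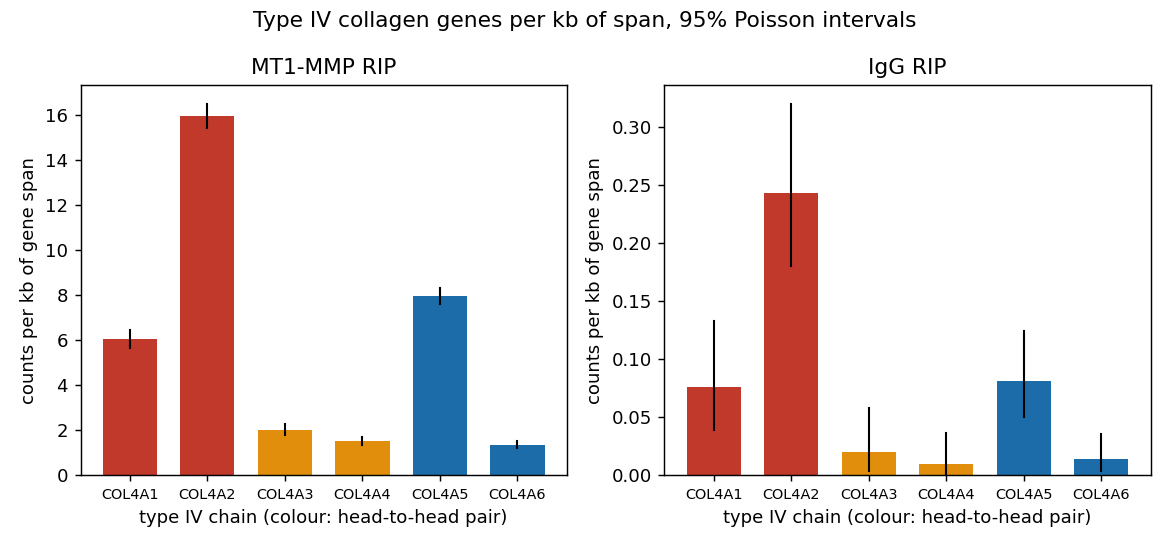
Counts per kb of gene span of the 6 type IV collagen genes in the MT1-MMP RIP (left) and the IgG RIP (right), with 95% Poisson intervals as black lines and bars coloured by head-to-head pair. COL4A2 stands highest in both panels, at 15.9 and 0.243 counts per kb, and the scales of the panels differ.

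Both tested short-chain network collagens were higher in the MT1-MMP RIP, though COL10A1 lies inside another gene, as given below. COL8A1 lies in decile 9 by span, where 16.6% of protein-coding genes were higher in the MT1-MMP RIP. COL10A1 lies in decile 8, where 8.03% were. COL8A1, a chain of type VIII collagen, which is made by vascular and other cells during remodelling, had 10359 counts in the MT1-MMP RIP and 54 in the IgG RIP. Its log2 ratio was 2.05 (1.68 to 2.48), a 4.14-fold scaled ratio, and its lower bound was 3.20-fold. It kept that call under each scaling and count minimum that was run but lost it with a 4-fold threshold. It had 64.5 MT1-MMP counts per kb, above 93.4% of tested protein-coding genes. In RefSeq the COL8A1 span (chr3, 99638594 to 99799217) shares 87 bases with a long noncoding RNA gene. Its partner chain gene COL8A2 had 13 and 1 counts and was not tested.

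COL10A1, the collagen of growth plate cartilage, had 1258 MT1-MMP counts and 1 IgG count, the highest log2 ratio of the family at 4.19 (2.30 to 10.08). Its whole span (chr6, 116118909 to 116217144) lies inside that of NT5DC1, which had 2738 and 15 counts and was itself higher in the MT1-MMP RIP (1.94, 1.27 to 2.83). Reads of the COL10A1 row cannot be told apart from those of NT5DC1.

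Type VI collagen, which forms beaded filaments around cells, was split. COL6A1 had 46 counts in each library, the lowest log2 ratio of the tested collagen genes at -5.52 (-6.14 to -4.90). COL6A2 had 121 and 12 counts (-2.24, -3.04 to -1.19). COL6A3, whose long chain joins those of COL6A1 and COL6A2, had 259 and 5 counts and lay at the typical ratio (0.04, -1.07 to 1.81).

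COL6A1 and COL6A2 were thus higher in the IgG RIP, and they also differed from each other: the ratio of COL6A1 was 0.100 times that of COL6A2 (exact interval 0.0442 to 0.213). The genes lie on chromosome 21 with 93063 bases between them. The COL6A2 call was lost with totals outside the ribosomal block as the scale and with a minimum of 1 summed count, where its log2 ratios were -1.60 and -1.87, and by plain CPM its log2 ratio was 1.998. The log2 ratio of COL6A1 was below 0 by plain CPM too (-1.28). COL6A5 and COL6A6, later-described type VI chains, had 39 and 0 counts and 368 and 4 counts (0.83, -0.37 to 2.89), and neither was called.

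COL7A1, the chain of the anchoring fibrils at the basement membrane of skin, had 78 counts in the MT1-MMP RIP and 27 in the IgG RIP. It was higher in the IgG RIP, with a log2 ratio of -4.01 (-4.64 to -3.30), and by plain CPM its log2 ratio of 0.23 was not beyond 2-fold.

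The fibril-associated collagens with interrupted helices (FACIT class) sit on the surface of fibrils. COL12A1, which binds type I fibrils, had 574 counts in the MT1-MMP RIP and 53 in the IgG RIP, a log2 ratio of -2.10 (-2.49 to -1.65), and was the single member of its class called. Its span of 121.7 kb lies in the ninth decile of tested protein-coding genes by span, where 1.89% of 1432 genes were higher in the IgG RIP. By plain CPM its log2 ratio was 2.14. A snoRNA gene of 74 bases, SNORD156, is the sole other RefSeq gene within the COL12A1 span.

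COL19A1 had 655 and 6 counts (1.14, 0.12 to 2.70) and COL21A1 283 and 3 (0.82, -0.52 to 3.33). COL14A1, a fibril-binding chain related to COL12A1, had 204 and 3 counts (0.35, -1.001 to 2.86). The intervals of COL14A1, COL19A1 and COL21A1 lay wholly above that of COL12A1. COL16A1 (40 and 3 counts), COL20A1 (26 and 0) and COL22A1 (50 and 2) had log2 ratios of -1.99, 0.21 and -1.18 with wide intervals that include 0. The type IX chains COL9A1, COL9A2 and COL9A3 had 11, 10 and 5 MT1-MMP counts and 0, 1 and 0 IgG counts.

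Among the transmembrane collagens, which stay anchored in the cell membrane, COL13A1 stood out by level. It is found at cell adhesions and at the neuromuscular junction. It had 25862 counts in the MT1-MMP RIP and 268 in the IgG RIP, or 164 and 1.70 per kb of span, above 98.9% and 86.0% of tested protein-coding genes. Its log2 ratio was 1.07 (0.90 to 1.25), a 2.10-fold scaled ratio whose lower bound of 1.86-fold lay just inside 2-fold, so it was not called. With plain CPM, with upper-quartile scaling, with totals outside the ribosomal block, with a minimum of 1 summed count or with a 1.5-fold threshold it was. The ratio of COL13A1 was 0.503 times that of COL8A1 (exact interval 0.368 to 0.677), so the collagen genes with the most reads differed from each other beyond counting error.

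The 250 bases before the COL13A1 start (chr10:69801656-69801905, GRCh38.p14, plus strand, RefSeq) are shown because this gene held the most counts. Capitals mark the TATAAA match, and neither CCAAT nor GGGCGG occurs in it.
COL13A1: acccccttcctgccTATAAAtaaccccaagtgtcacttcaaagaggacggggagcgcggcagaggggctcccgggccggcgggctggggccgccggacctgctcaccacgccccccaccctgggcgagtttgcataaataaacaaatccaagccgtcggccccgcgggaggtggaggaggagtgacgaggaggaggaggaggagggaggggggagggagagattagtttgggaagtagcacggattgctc

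COL23A1 and COL25A1, the latter known from amyloid plaques, had 222 and 172 MT1-MMP counts and 0 IgG counts each. Their exact lower bounds were 1.30-fold and 1.005-fold of the typical ratio, with no upper bound, and neither was called. COL17A1, the hemidesmosome collagen of epithelia, had 124 and 6 counts (-1.26, -2.31 to 0.32).

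The multiplexins COL15A1 and COL18A1 encode basement membrane collagens whose cleaved ends include restin and endostatin. They parted in ratio. COL15A1 had 2469 counts in the MT1-MMP RIP and 16 in the IgG RIP and was higher in the MT1-MMP RIP, with a log2 ratio of 1.70 (1.05 to 2.56). It lies in decile 9 by span, where 16.6% of protein-coding genes were higher in the MT1-MMP RIP. Its log2 ratio lay 0.72 above the median of that decile. COL18A1 had 532 and 21 counts (-0.89, -1.48 to -0.15) and was not called. The ratio of COL15A1 was 6.09 times that of COL18A1 (exact interval 3.003 to 12.6). The COL15A1 call is narrow: its lower bound was 2.07-fold, and the call was lost with DESeq2 size factors and with a minimum of 100 summed counts, whose TMM scale takes 61.4 counts to 1 as the typical ratio. COL18A1 shares 11204 bases with SLC19A1, which had 25 and 5 counts and was higher in the IgG RIP (-3.31, -4.61 to -1.46).

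The last members, COL26A1 and COL28A1, fall outside these classes. COL28A1 had 306 and 2 counts (1.42, -0.13 to 4.79) and COL26A1 38 and 1 (-0.84, -2.84 to 5.07).

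Collagen genes are long. The median span of the 35 tested genes, introns included, was 160.3 kb, against 36.9 kb for tested protein-coding genes, and 28 of the 35 lay in the 3 longest deciles. The ratio was higher in longer genes, in the family and among protein-coding genes. Spearman's rho was 0.52 and Pearson's r on log2 span 0.70 over the 35 genes, 0.59 and 0.77 without COL10A1, and 0.62 and 0.62 over all 14318 genes. Over the 28 collagen genes with at least 100 summed counts they were 0.40 and 0.59. For the counts themselves, Spearman's rho of span with MT1-MMP counts was 0.28 in the family and 0.57 in protein-coding genes, and with IgG counts -0.33 and 0.16. These are descriptions across genes, which share the same 2 libraries and are not independent replicates. All 4 tested collagen genes in the shorter 5 deciles (COL1A1, COL6A1, COL6A2 and COL7A1) were higher in the IgG RIP, as were 29.4% of 7159 protein-coding genes there.

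Set against genes of like span, most collagen genes had lower ratios. The log2 ratio lay below the median of the gene's span decile for 27 of the 35 and above it for 8, with a median difference of -0.55. It lay under the decile's interquartile range for 17, within it for 12 and over it for 6 (COL8A1, COL10A1, COL15A1, COL23A1, COL25A1 and COL27A1). Of the 6, COL23A1, COL25A1 and COL27A1 had 0 IgG counts, so their log2 ratios rest on the 0.5 counts added. With 2 counts added they were 1.29, 0.92 and 0.75, beside decile medians, at 0.5 counts added, of 1.47, 1.47 and 0.99. COL10A1 had 1 IgG count and lies inside NT5DC1. COL13A1 was 0.08 above its decile's median, and COL6A1, COL7A1, COL1A1 and COL12A1 were farthest below, with differences of -5.08, -3.80, -3.57 and -3.08. In the longest decile, from 194.1 kb upward, 0 of 16 collagen genes were higher in the MT1-MMP RIP, against 39.0% of 1432 genes. Just 5 of these 16 had the 341 counts a call needs at 0 IgG counts, namely COL4A2, COL4A5, COL4A6, COL19A1 and COL24A1, with log2 ratios from 0.50 to 1.24, while 50.0% of the 1117 protein-coding genes with as many counts were called. The 0.5 counts added to each library pull genes of low counts toward the IgG side, and its part in these differences was not tested.

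**Figure D4:**
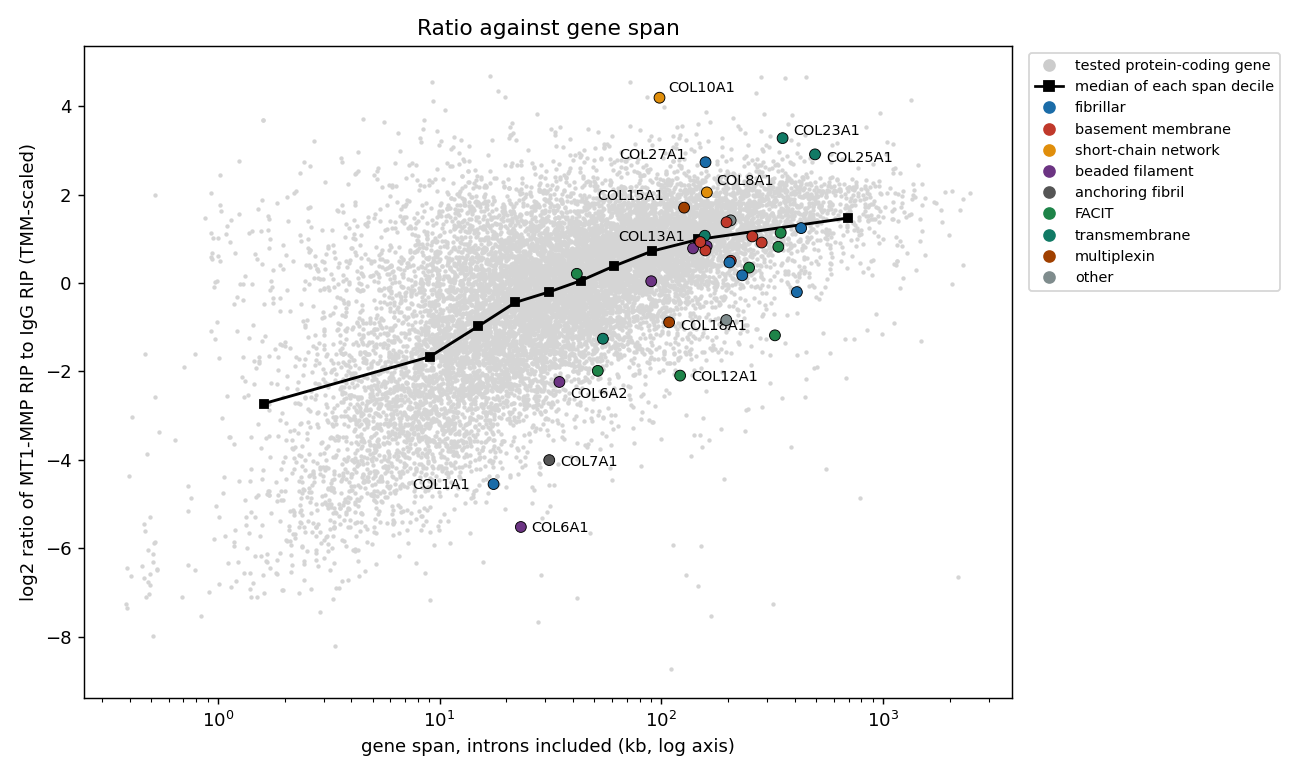
TMM-scaled log2 ratio (MT1-MMP RIP over IgG RIP) against gene span (kb, log axis) for the 35 tested collagen chain genes (coloured by class) over 14318 tested protein-coding genes (grey), with the median of each decile of spans as black squares. COL1A1, COL6A1 and COL7A1 lie at the lower left, COL12A1 lies at a difference of -3.08 from the median of its decile, and COL10A1 lies highest.

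Some collagen rows share ground with other genes. Of the 44, 16 overlap no other RefSeq gene, 10 of them tested, and of these 2 were higher in the IgG RIP (COL1A1 and COL6A1) and 0 in the MT1-MMP RIP. Of the 5365 tested protein-coding genes that overlap no other RefSeq gene, 20.9% and 2.95% were, so the collagen counts lie near the background. These shares take no account of span. Besides COL10A1, the row of COL4A3 stands out, since the long noncoding RNA gene MFF-DT covers 62.4% of its span and held 281 and 3 counts beside its own 305 and 3. The COL4A4 span shares 16.2% with RHBDD1, which had 3383 and 22 counts and was higher in the MT1-MMP RIP (1.71, 1.14 to 2.42). No source used here says whether the counting used strand, so reads of such genes cannot be assigned.

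Genes that make, export, trim and bind collagen were measured in the same libraries. Of 19 genes for chain modification and folding, 17 were tested, 2 were higher in the MT1-MMP RIP and 6 in the IgG RIP, with a median log2 ratio of -0.53. The 2 were PLOD2, a lysyl hydroxylase that prepares collagen for crosslinking (10215 and 68 counts, 1.70, 1.37 to 2.08), and TMEM38B, an ion channel of the endoplasmic reticulum (1621 and 4 counts, 2.97, 1.78 to 5.02). Farthest on the IgG side were PPIB, a prolyl isomerase (176 and 44 counts, -3.53), PLOD3, another lysyl hydroxylase (40 and 11, -3.70), and CRTAP, a partner of prolyl 3-hydroxylase (679 and 94, -2.67). By plain CPM these latter log2 ratios were 0.71, 0.53 and 1.56.

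The 8 secretion genes, which include the cargo receptors and coat proteins that carry procollagen out of the endoplasmic reticulum, were all tested and none was called, with log2 ratios from -0.99 to 0.92. Of 10 genes for propeptide removal 8 were tested, with a median log2 ratio of 1.201, and TLL2, a tolloid-like proteinase, was the sole call (1835 and 8 counts, 2.23, 1.34 to 3.53). Among 10 collagen receptors 9 were tested, with a median log2 ratio of 0.39. DDR1, a receptor kinase activated by collagen, was higher in the IgG RIP (73 and 8 counts, -2.41, -3.38 to -1.07), though by plain CPM its log2 ratio was 1.83, and the other 8 tested receptors were not called. The background shares for these counts are the 7.24% and 16.2% given above, which take no account of span. The 6 modification genes higher in the IgG RIP spanned 7.2 to 33.8 kb, within the shorter 5 deciles. There 29.4% of 7159 protein-coding genes were higher in the IgG RIP.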

How the data were processed

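The authors deposited 1 table of raw read counts per named row, with 1 column per library, tied to its sample through the column named in its description. The tools named by the submitters' processing notes are cutadapt, HISAT2 and SAMtools, with hg38, and no source used here states their versions, the counter, the annotation or the strand setting. Names were matched to RefSeq (GRCh38.p14) for 39250 rows. Rows repeating an earlier name and its counts (959) were left out of comparisons, and 1368 rows of ambiguous name were not classed. TMM factors came from edgeR 4.0.16 on 25933 rows with at least 20 summed counts. Log2 ratios had 0.5 counts added. Intervals are exact (Clopper-Pearson, 95%), conditional on the summed count (scipy). They were run on simulated Poisson counts, which have no variation between libraries and no repeated reads. That run cannot show how the intervals hold in real libraries. With 1 library per group no p-value was computed. Every collagen gene is named; of each companion list, up to 3 genes per direction with the bound farthest beyond 2-fold. Members and lists were chosen with earlier results of these data known. Alternatives covered scaling (CPM, DESeq2 1.42.0, upper quartile, protein-coding rows, totals outside the ribosomal block), count minimum, added counts, call threshold and overlap.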

Additional observations from a re-analysis of the deposited data

How the results depend on the processing

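The counts of 3 collagen genes higher in the MT1-MMP RIP and 5 higher in the IgG RIP rest on the scale. By plain CPM they were 31 and 0, and the median log2 ratio, 0.74 on the TMM scale, was 4.98. By totals outside the ribosomal block 6 genes were higher in the MT1-MMP RIP and the median was 1.38. A 4-fold threshold left 1 (COL10A1, which lies inside NT5DC1) and 3 genes, and a minimum of 100 summed counts left 3 on the IgG side. Genes without an overlapping gene gave 0 and 2 and a median of 0.12, with fewer genes tested. The shares of protein-coding genes called under these settings are given above. Adding 5 counts turned the median to -0.55, since it draws low genes toward the IgG side. By plain CPM, log2 ratios below 0 turned to 4.03 for COL5A2, 0.23 for COL7A1, 2.14 for COL12A1, 3.40 for COL26A1, 3.05 for COL22A1, 2.98 for COL17A1, 3.35 for COL18A1, 1.998 for COL6A2 and 2.25 for COL16A1. DESeq2, upper-quartile and protein-coding TMM scaling moved the call of at most 1 gene each. No paired analysis was possible because each group has 1 library, and no replicate could be left out. Low IgG counts limit most single ratios: 23 of the 35 tested genes had fewer than 10.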

Other observations

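The 10 rows of collagen antisense transcripts, a divergent transcript and pseudogenes held few reads. The pseudogenes COL6A4P1 and COL6A4P2 had 127 and 51 MT1-MMP counts and 3 and 1 IgG counts, with log2 ratios of -0.33 and -0.42. COL18A1-AS1 and COL18A1-AS2 had 51 and 24 MT1-MMP counts and COL1A2-AS1 had 29, each with 0 IgG counts, although COL1A2 itself was listed at 0. COL4A2-AS2 and COL4A2-AS1 had 50 and 19 MT1-MMP counts and 4 and 1 IgG counts, COL5A1-AS1 and COL25A1-DT had 5 and 1 MT1-MMP counts, and COL11A2P1 was listed at 0. None was called in either direction, since no interval lay wholly beyond 2-fold.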
